A study of Homo sapiens with 4 samples.

Results

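The HOX cluster genes were described in RNA-seq libraries of 4 human prostate cancer cell lines. Members were the rows of the deposited gene table whose symbol is HOX followed by a cluster letter from A to D and a number, without 1 gene that is not reported here. This gave 24 genes among 22637 in the table: 10 of HOXA on chromosome 7, 5 of HOXB on chromosome 17, 8 of HOXC on chromosome 12 and 1 of HOXD on chromosome 2. HOXA2, HOXB1, HOXB2, HOXB4, HOXB8, HOXC11 and the HOXD genes other than HOXD13 were not analysed here.

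HOX genes encode homeodomain transcription factors that give cells their position along the body axis. They lie in clusters in the order of their paralog number, and in the embryo genes of low number act toward the head and genes of high number toward the tail. Posterior HOX genes, among them HOXA13 and HOXD13, act in the development of the urogenital tract, to which the prostate belongs. In cells where a HOX gene is off, Polycomb complexes commonly hold it silent, and Trithorax and MLL complexes keep it active where it is on. HOX proteins bind DNA with TALE homeodomain partners of the PBX and MEIS families.

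LNCaP is an androgen-responsive prostatic adenocarcinoma line, whereas C4-2B descends from LNCaP and grows after castration. LN-OlapR and 2B-OlapR were raised from LNCaP and C4-2B, in that order, by long exposure to rising doses of olaparib, an inhibitor of the DNA repair enzyme PARP. All 4 lines are labelled untreated, and RNA was taken from cells plated without a selection agent, although the resistant lines were otherwise kept in olaparib. Each line gave 1 stranded mRNA library, so a difference between 2 libraries has no replicate check and is not shown to be one between the lines. On the 4 libraries 1 test was run, of both resistant lines against both parental lines with the lineage as a block, which leaves 1 residual degree of freedom. C4-2B and 2B-OlapR together were not tested against LNCaP and LN-OlapR. Whether each resistant line is 1 clone is not given in the sources used here.

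The libraries held between 19950537 and 26394267 counts. Levels are given as normalized CPM, the counts in every 1000000 of a library after scaling for its composition. All intervals are at the 95% level and, unless said to be over genes, hold counting error alone. Where 4 values are given without names, they stand for LNCaP, LN-OlapR, C4-2B and 2B-OlapR in this order. The luminal prostate markers KLK2, KLK3, TMPRSS2, FOLH1, SLC45A3, KRT8 and KRT18 were detected in every library, the keratin KRT18 at 374.6 to 422.1 normalized CPM. Within this list KLK3, which encodes prostate-specific antigen, was low in the library labelled LNCaP at 53.1 normalized CPM, against 1870 to 2685 in the other libraries. LNCaP is known as a line that expresses KLK3 strongly, so this library went against its label in that marker, and the comparisons of LN-OlapR and of C4-2B with LNCaP both rest on it. Its label and its culture were not tested, and the comparison of 2B-OlapR with C4-2B does not use it. KLK2 was lowest there too, at 126.4 normalized CPM against 233.0 to 747.6, whereas FOLH1 was highest in LNCaP and LN-OlapR, at 734.8 and 734.7 against 438.8 and 333.9. TMPRSS2 was lowest in C4-2B at 130.4 normalized CPM and SLC45A3 lowest in 2B-OlapR at 74.7, with 592.2 in C4-2B. The basal list was represented by 1 of 4 markers, KRT14, at 0.112 to 0.557 normalized CPM, the endothelial list by 1 of 3, VWF, at 2.61 to 12.2, and the neuroendocrine list by 1 of 5, SYP, at 2.44 to 3.13.

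The sequences before HOXA11, HOXA13 and HOXD13 are shown because these posterior genes were at or near 0 in LNCaP and LN-OlapR and had their highest levels in C4-2B or 2B-OlapR. RefSeq promoter windows on GRCh38.p14 were matched for 10 of the 24 members. The stretches run from 250 to 51 bases before the RefSeq start, 5′ to 3′ on the strand of the gene, with each CpG, the dinucleotide that DNA methylation uses, in capitals.
HOXA11, chr7:27185283-27185482, minus strand: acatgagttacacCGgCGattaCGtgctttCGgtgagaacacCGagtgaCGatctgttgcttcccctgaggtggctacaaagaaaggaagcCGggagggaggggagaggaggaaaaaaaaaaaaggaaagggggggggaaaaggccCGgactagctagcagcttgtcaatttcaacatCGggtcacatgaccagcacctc
HOXA13, chr7:27200142-27200341, minus strand: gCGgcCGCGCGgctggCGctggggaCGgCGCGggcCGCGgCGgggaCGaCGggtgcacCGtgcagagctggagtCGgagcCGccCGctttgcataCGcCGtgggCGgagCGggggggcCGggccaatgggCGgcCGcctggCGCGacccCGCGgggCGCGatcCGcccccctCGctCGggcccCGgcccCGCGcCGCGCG
HOXD13, chr2:176092471-176092670, plus strand: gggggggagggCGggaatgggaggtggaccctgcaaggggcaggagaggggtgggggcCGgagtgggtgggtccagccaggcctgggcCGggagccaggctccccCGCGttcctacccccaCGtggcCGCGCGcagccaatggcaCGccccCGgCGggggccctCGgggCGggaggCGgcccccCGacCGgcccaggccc

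The stretch before HOXA13 holds 39 CpG, that before HOXD13 holds 17 and that before HOXA11 holds 9. Over the whole RefSeq windows, which end 50 bases past the start, HOXA13 has 44 CpG, and 4.19% of 34943 windows of the same length hold as many. The HOXA11 window has 13 CpG, about the median of all windows, which is 14. The stretch before HOXA11 overlaps exons of HOXA11-AS, a noncoding gene on the other strand. The CCAAT box, with the letters CCAAT on either strand, lies once in the HOXA13 window and once in the HOXD13 window and not in that of HOXA11, and 34.6% of all windows hold it. The letters TATAAA on either strand were found in the HOXD13 window as 2 overlapping matches on opposite strands, and 11.6% of all windows hold them. The PBX-HOX letters TGATNNAT and the nuclear receptor half-site AGGTCA were not found in any of the 17 member windows, and 7.42% and 13.8% of all windows hold them. These are matches of letters only, and no binding or methylation was measured.

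More HOX genes were detected in C4-2B and 2B-OlapR than in LNCaP and LN-OlapR. At a level of 1 normalized CPM or more there were 9, 13, 19 and 22 of the 24 HOX genes. Over all genes of the table the share at this level was 67.7%, 67.1%, 68.2% and 68.1%, so it was nearly even where the number of HOX genes was not. In LNCaP 4 HOX genes, HOXA4, HOXA13, HOXB5 and HOXD13, had no count, and in LN-OlapR this was 1 gene, HOXA13. By the floor of 3 counts, a count of 0 allows a level of up to 0.112 normalized CPM in LNCaP and 0.129 in LN-OlapR, and the Wilson intervals reach 0.143 and 0.165. No HOX gene was at 3 counts or fewer in C4-2B or 2B-OlapR. In RNA from whole cultures, fewer cells with a transcript and less transcript per cell cannot be told apart.

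**Figure D1:**
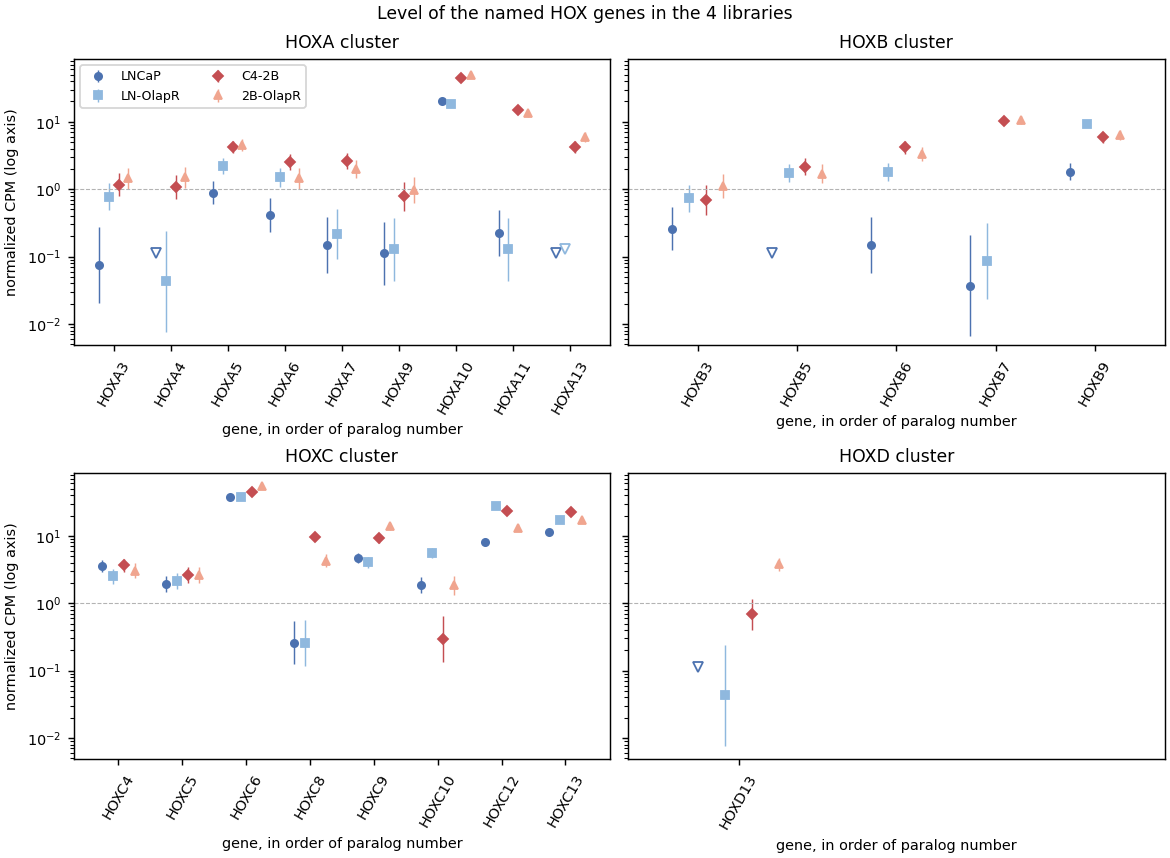
Level of each named HOX gene as normalized CPM on a log axis, by cluster and in the order of paralog number, in LNCaP (circles), LN-OlapR (squares), C4-2B (diamonds) and 2B-OlapR (triangles). Lines are 95% Wilson counting intervals, open downward triangles mark genes with 0 counts at the level of 3 counts, and the dashed line is at 1 normalized CPM. HOXA11, HOXA13, HOXB7 and HOXC8 sit far lower in both LNCaP and LN-OlapR than in both C4-2B and 2B-OlapR.

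The 24 genes together summed to 94.9, 134.4, 218.2 and 218.9 normalized CPM. The HOXC cluster made up most of the HOX counts, 73.2% in LNCaP and 71.8% in LN-OlapR, and less in C4-2B at 53.5% and in 2B-OlapR at 50.5%. The HOXA sum was close between LNCaP and LN-OlapR, at 23.2 and 24.2 normalized CPM, and higher in C4-2B and 2B-OlapR, at 77.8 and 81.5. Most of it was HOXA10, with 547 of 623 counts in LNCaP and 428 of 565 in LN-OlapR. The central HOXA genes summed to 2.75-fold in LN-OlapR against LNCaP (log2 ratio 1.45, 0.90 to 2.04), the posterior ones to 0.900-fold (log2 ratio -0.15, -0.34 to 0.03). The HOXB sum was 2.27 normalized CPM for LNCaP, 13.7 for LN-OlapR and 23.1 for both C4-2B and 2B-OlapR. Most of it was HOXB9 in LNCaP, with 49 of 61 counts, and in LN-OlapR, with 219 of 320. LN-OlapR was above LNCaP by 6.05-fold in the HOXB sum (log2 ratio 2.59, 2.20 to 3.02), by 1.39-fold in the HOXC sum (log2 ratio 0.47, 0.38 to 0.56) and by 1.045-fold in the HOXA sum (log2 ratio 0.06, -0.10 to 0.23). By paralog group, the posterior genes 9 to 13 summed to 48.6, 81.9, 127.4 and 126.1 normalized CPM, and the central genes 4 to 8 to 45.0, 50.2, 88.1 and 89.6.

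**Figure D2:**
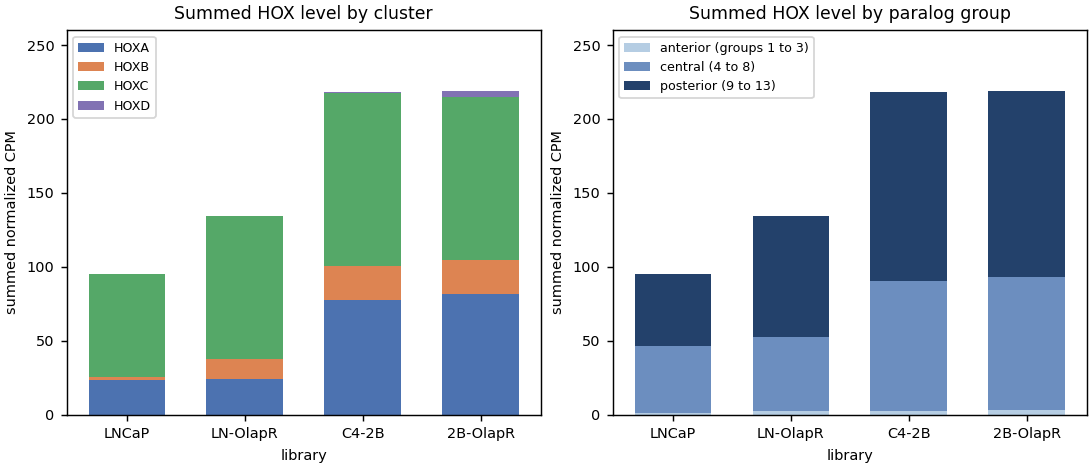
Summed level of the HOX genes as normalized CPM in each of the 4 libraries, stacked by cluster (left) and by paralog group (right). The total rises from 94.9 in LNCaP to 134.4 in LN-OlapR and stands at 218.2 and 218.9 in C4-2B and 2B-OlapR.

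Levels per kilobase of exon were used to order the genes. HOXC6 had the highest level in LNCaP, at 10.6 normalized CPM per kb (9.99 to 11.3), ahead of HOXA10 at 5.49 (5.05 to 5.97) and HOXC13 at 4.73 (4.23 to 5.29). The intervals of HOXA10 and HOXC13 overlap. In LN-OlapR the order was HOXC6 at 10.7 normalized CPM per kb (9.96 to 11.4), HOXC12 at 8.20 (7.59 to 8.86) and HOXC13 at 6.97 (6.32 to 7.69), the intervals of HOXC12 and HOXC13 overlapping. With the longest transcript as the length, HOXA10 at 7.22 passed HOXC13 at 6.97 in LN-OlapR. In C4-2B, HOXC6 at 12.8 normalized CPM per kb (11.96 to 13.6) and HOXA10 at 12.2 (11.4 to 13.01) could not be ordered. In 2B-OlapR, HOXC6 at 15.4 normalized CPM per kb (14.6 to 16.3) stood above HOXA10 at 13.4 (12.6 to 14.3), but this order turned around when the longest transcript was used as the length, in C4-2B as well. HOXC6 is a gene of the central group and HOXA10 one of the posterior group.

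C4-2B was compared with LNCaP, the line it came from, to describe the HOX genes in castration resistance. Of the 24 genes, 18 passed the filter, a mean level over the pair of 1 normalized CPM or more, and 12 of them were at least 2-fold higher in C4-2B, against 8.0% of the 15580 genes of the table that passed it, called tested from here on. HOXC10 was at least 2-fold lower, against 7.18% of the genes tested. Of the 18 genes, 10 were under 1 normalized CPM in 1 of the 2 libraries and passed only through the other, so that a difference was to be found in them: 9 were at least 2-fold higher and HOXC10 was lower. Of the 8 that were at or above it in both, 3 were at least 2-fold higher. The median log2 ratio of the 18 genes was 1.95 (0.95 to 5.12, interval over genes) and that of all genes tested was -0.02. Only 1 library stands behind each line here and in the following comparisons.

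**Figure D3:**
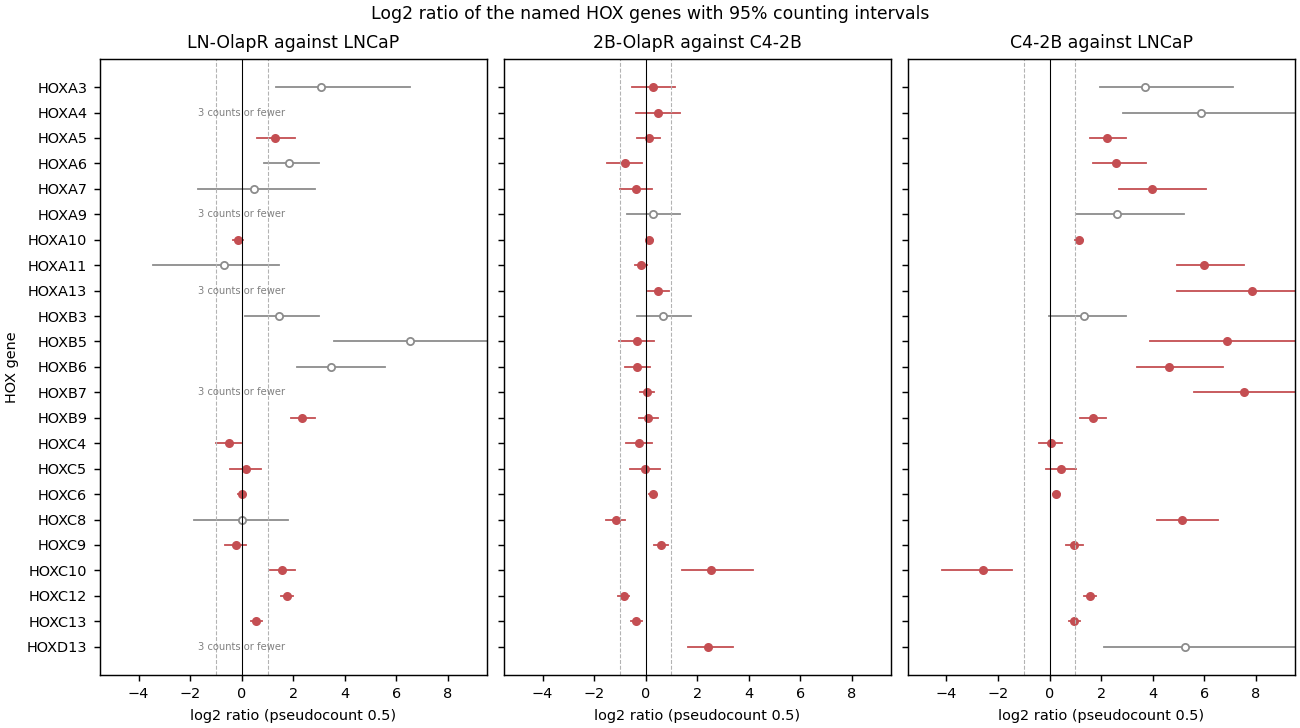
Log2 ratio of each named HOX gene in the 3 comparisons, with exact 95% counting intervals as lines. Filled points are genes that passed the filter of 1 normalized CPM on the mean of the pair, open points are genes below it, dashed lines mark 2-fold, and genes with 3 counts or fewer in both libraries carry no value. In the comparison of C4-2B with LNCaP the points reach from -2.56 for HOXC10 to 7.85 for HOXA13, whereas those of 2B-OlapR against C4-2B lie mostly within 2-fold.

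Past HOXA10, the posterior end of the HOXA cluster was near 0 in LNCaP and LN-OlapR. In GENCODE release 29 on GRCh38, HOXA10 (ENSG00000253293) lies at chr7:27170591-27180261, HOXA11 (ENSG00000005073) at chr7:27181510-27185223 and HOXA13 (ENSG00000106031) at chr7:27193503-27200106, all on the minus strand. HOXA13 had 0, 0, 87 and 124 counts, which is 0, 0, 4.25 and 5.98 normalized CPM. HOXA13 was thus not detected in LNCaP or LN-OlapR. Its C4-2B level was 38.1-fold the floor of 3 counts in LNCaP, and the lower limit of the ratio's interval was 30.3-fold. HOXA11, which acts in the development of limb, kidney and uterus, had levels of 0.223, 0.129, 15.2 and 13.3 normalized CPM. The C4-2B level was 67.9-fold that of LNCaP (log2 ratio 5.97, 4.95 to 7.54). HOXA10, the next gene of the cluster, was well detected in every library at 20.4, 18.4, 45.2 and 49.7 normalized CPM, and its difference between C4-2B and LNCaP was 2.22-fold (log2 ratio 1.15, 1.0 to 1.31). HOXA9, known for its part in acute leukaemia, was low throughout, at 3, 3, 16 and 20 counts.

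The deposited values of HOXA11 and HOXA11-AS were not whole numbers in 3 libraries, and in each of these 3 their sum was whole within 0.01. The 2 genes lie on opposite strands and share 31.1% of the exon bases of HOXA11, so their single values are uncertain. Added together, they summed to 27, 11, 550 and 495 counts, and the ratio of C4-2B to LNCaP was then 26.8-fold (log2 ratio 4.72, 4.18 to 5.36). The sums were whole in the same way for HOXC13 and HOXC13-AS in 3 libraries and for HOXB3 and HOXB-AS1 in 2. The sums of HOXA11 and HOXA11-AS gave a log2 ratio of -1.05 (-2.25 to -0.03) between LN-OlapR and LNCaP, where HOXA11 alone had an interval that held 0.

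The central HOXA genes were also low in LNCaP. HOXA5, which acts in lung development, stood at 0.893, 2.23, 4.20 and 4.54 normalized CPM. The C4-2B level was 4.71-fold that of LNCaP (log2 ratio 2.21, 1.57 to 2.95). HOXA6 stood at 0.409, 1.5, 2.54 and 1.45 normalized CPM, so LN-OlapR and 2B-OlapR were close to each other. HOXA7 stood at 0.149, 0.214, 2.59 and 1.98 normalized CPM, and its C4-2B level was 17.4-fold that of LNCaP (log2 ratio 3.97, 2.68 to 6.05). Of the exon bases of HOXA7, 62.5% overlap HOXA-AS3 on the other strand, and of those of HOXA6, 39.3%. HOXA4 was found at 0, 0.0429, 1.08 and 1.496 normalized CPM. Its C4-2B level was 9.63-fold the floor in LNCaP (lower limit of the ratio 7.20-fold). At the anterior end, HOXA3 had 2, 18, 24 and 30 counts (0.0744, 0.772, 1.17 and 1.45 normalized CPM), a ratio of C4-2B to LNCaP of 15.8-fold (log2 ratio 3.69, 1.97 to 7.11).

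In the HOXB cluster HOXB5, HOXB6, HOXB7 and HOXB9 were at least 2-fold higher in C4-2B than in LNCaP. HOXB7 (ENSG00000260027, chr17:48607227-48633572, minus strand), which has been linked to growth of epithelial tumours, had 1, 2, 209 and 220 counts (0.0372, 0.0857, 10.2 and 10.6 normalized CPM), so that it was near 0 in LNCaP and LN-OlapR. The ratio of C4-2B to LNCaP was 274.6-fold, with a wide counting interval since it rests on that 1 count (log2 ratio 7.52, 5.61 to 13.41). HOXB5 was at 0, 1.72, 2.15 and 1.69 normalized CPM. Its C4-2B level was 19.3-fold the floor in LNCaP (lower limit of the ratio 15.0-fold). HOXB6 was at 0.149, 1.80, 4.15 and 3.33 normalized CPM, a ratio of 27.9-fold between C4-2B and LNCaP (log2 ratio 4.64, 3.39 to 6.71). HOXB9 was found in every library, at 1.82, 9.39, 5.86 and 6.32 normalized CPM, with its highest level in LN-OlapR. HOXB3 stayed low at 7, 17, 14 and 23 counts (0.260, 0.729, 0.684 and 1.11 normalized CPM), and the interval of its ratio between C4-2B and LNCaP held 0, alone and with HOXB-AS1 added.

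The HOXC genes differed among themselves. HOXC6, which is known to be raised in prostate cancer, was high in every library, at 37.6, 37.7, 45.2 and 54.6 normalized CPM. Its neighbour HOXC8 (ENSG00000037965, chr12:54009106-54012362, plus strand) was at 0.260, 0.257, 9.68 and 4.30 normalized CPM, low in LNCaP and LN-OlapR alike. The C4-2B level of HOXC8 was 37.2-fold that of LNCaP (log2 ratio 5.12, 4.15 to 6.55), while that of HOXC6 was 1.20-fold (log2 ratio 0.26, 0.13 to 0.39). HOXC10 (ENSG00000180818, chr12:53985065-53990279, plus strand), the only HOX gene at least 2-fold lower in C4-2B, had 50, 130, 6 and 38 counts (1.86, 5.57, 0.293 and 1.83 normalized CPM). Its LNCaP level was 6.34-fold that of C4-2B (log2 ratio of C4-2B to LNCaP -2.56, -4.18 to -1.44). HOXC12 was at 8.07, 27.4, 23.7 and 13.1 normalized CPM, lowest in LNCaP and highest in LN-OlapR. HOXC13, which acts in hair and nail formation, was at 11.5, 16.9, 22.4 and 17.4 normalized CPM, and HOXC9 at 4.72, 4.03, 9.14 and 13.8. HOXC4 at 3.57, 2.53, 3.67 and 3.04 normalized CPM and HOXC5 at 1.93, 2.14, 2.64 and 2.61 were within 2-fold in each comparison. Of the exon bases of HOXC5, 59.9% overlap other entries on the same strand.

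HOXD13 was the only HOXD gene among the members. It lies at chr2:176092891-176095938 on the plus strand (ENSG00000128714). It had 0, 1, 14 and 78 counts (0, 0.0429, 0.684 and 3.76 normalized CPM), lowest in LNCaP and LN-OlapR and highest in 2B-OlapR. Its level in C4-2B was 6.13-fold the floor in LNCaP (lower limit of the ratio 4.36-fold).

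LN-OlapR was compared with LNCaP to describe the HOX genes in olaparib resistance from a castration-sensitive line. Of the 24 genes, 10 passed the filter, and 4 of these, HOXA5, HOXB9, HOXC10 and HOXC12, were at least 2-fold higher in LN-OlapR, against 4.64% of the 15373 genes tested. No HOX gene that passed was at least 2-fold lower, against 4.83% of the genes tested. HOXA5 was under 1 normalized CPM in LNCaP, so its passing rested on LN-OlapR. The median log2 ratio of the 10 genes was 0.35 (-0.23 to 1.76, interval over genes) and that of all genes tested 0.00.

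HOXB9 differed most among the 10, with 49 counts in LNCaP and 219 in LN-OlapR, 5.15-fold (log2 ratio 2.35, 1.91 to 2.84). HOXC12 had 217 and 638 counts, 3.39-fold (log2 ratio 1.76, 1.54 to 1.99), and HOXC10 had 50 and 130, 3.0-fold (log2 ratio 1.57, 1.10 to 2.08). These 3 genes are posterior genes, as are HOXA10, HOXC9 and HOXC13, which also passed the filter and were within 2-fold. HOXA5 was 2.50-fold higher (log2 ratio 1.30, 0.60 to 2.08), and HOXC13 was 1.47-fold higher (log2 ratio 0.56, 0.34 to 0.78).

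Below the filter lay HOXB5 and HOXB6, which were nearly silent in LNCaP. HOXB5 had 0 counts in LNCaP and 40 in LN-OlapR, 15.4-fold the floor (lower limit of the ratio 11.9-fold). HOXB6 had 4 and 42 counts, 12.1-fold (log2 ratio 3.44, 2.13 to 5.54). HOXA3 had 2 and 18 counts, 10.4-fold (log2 ratio 3.09, 1.31 to 6.53), and HOXA6 had 11 and 35, 3.67-fold (log2 ratio 1.83, 0.86 to 3.0). HOXB3 had 7 and 17 counts, 2.80-fold, but with HOXB-AS1 added the sums were 16 and 24 counts, 1.73-fold (log2 ratio 0.78, -0.18 to 1.80), within 2-fold and with an interval that held 0. HOXA7, HOXA9, HOXA11, HOXB7 and HOXC8 had at most 7 counts in either library, with intervals that held 0, and HOXA4, HOXA13 and HOXD13 had at most 1 count in either. The well expressed HOXC6 and HOXA10 differed by 1.0-fold (log2 ratio 0.00, -0.13 to 0.14) and 0.902-fold (log2 ratio -0.15, -0.34 to 0.04).

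Set beside C4-2B, which is not its parent, LN-OlapR held some HOX genes at 40.6% to 160.1% of their C4-2B level. Others were at 16.4% or less, and HOXC10 was at 1901%. This grouping was made after the values were seen. In LN-OlapR, HOXB9 reached 160.1% of its level in C4-2B, HOXC12 115.6%, HOXB3 106.5%, HOXB5 79.8%, HOXA3 65.8%, HOXA6 59.1%, HOXA5 53.0% and HOXB6 43.4%. LNCaP reached 0% to 38.1% of C4-2B in these genes. HOXC4, HOXC5, HOXC6 and HOXC13 reached 69.0%, 81.2%, 83.5% and 75.5% in LN-OlapR, and HOXC9 and HOXA10 reached 44.1% and 40.6%. In LNCaP the same genes reached 97.4%, 73.3%, 83.3% and 51.2%, and 51.7% and 45.0%. LNCaP was thus about as close to C4-2B as LN-OlapR, or closer, in HOXC4, HOXC6, HOXC9 and HOXA10. In LN-OlapR the rest were lower. HOXA9 reached 16.4%, HOXA7 8.28%, HOXD13 6.27%, HOXA4 3.99%, HOXC8 2.66%, HOXA11 0.849% and HOXB7 0.840%, and HOXA13 had no count. Within HOXB, HOXB7 was thus near 0 in LN-OlapR while HOXB5, HOXB6 and HOXB9 on either side of it were not. CD68, the 1 of 4 leukocyte markers in the table, had 0.409 normalized CPM in LNCaP and 5.15, 4.20 and 2.17 in LN-OlapR, C4-2B and 2B-OlapR, so it was lowest in LNCaP as HOXB5 and HOXB6 were. PDGFRB, of the stromal markers, had 0.707, 2.06, 2.74 and 1.64 normalized CPM, lowest in LNCaP. The other stromal markers in the table were not lowest in LNCaP, and 1 of them was highest there. The stromal list, 3 of 6 in the table, summed to 16.96, 10.4, 19.0 and 8.83. Of the luminal markers, KLK2 and KLK3 were lowest in LNCaP, and FOLH1 was alike in LNCaP and LN-OlapR, above C4-2B and 2B-OlapR. The part of these genes in the HOX differences was not tested.

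2B-OlapR was compared with C4-2B to describe olaparib resistance from the castration-resistant line. Most HOX genes were within 2-fold, with 21 of the 24 passing the filter. HOXC10 and HOXD13 were at least 2-fold higher in 2B-OlapR, 2 genes against 4.42% of the 15527 genes tested, and HOXC8 was at least 2-fold lower, 1 gene against 5.65% of the genes tested. Both of the higher genes were under 1 normalized CPM in C4-2B. The median log2 ratio was 0.06 (-0.34 to 0.30, interval over genes) and that of all genes tested 0.00. The summed ratios of HOXA (0.07), HOXB (0.00) and HOXC (-0.08) were near 0.

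HOXC10 was 6.25-fold higher in 2B-OlapR with 38 against 6 counts (log2 ratio 2.55, 1.39 to 4.18). Among the HOX genes that passed the filter in both pairs it was the only one at least 2-fold higher in each resistant line than in its parent. HOXD13 had 1 count in LN-OlapR and 0 in LNCaP, too few for a fold. Of all genes tested, 4.64% were at least 2-fold higher in LN-OlapR and 4.42% in 2B-OlapR, and the share higher in both was not computed. The 2B-OlapR level of HOXC10, 1.83 normalized CPM, was close to the 1.86 of LNCaP. HOXD13 was 5.5-fold higher with 78 against 14 counts (log2 ratio 2.42, 1.63 to 3.40). HOXC8 had 89 counts in 2B-OlapR against 198, and its C4-2B level was 2.25-fold that of 2B-OlapR (log2 ratio -1.17, -1.55 to -0.80).

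Smaller differences lay in the HOXC and HOXA clusters. HOXC12 was 0.553-fold in 2B-OlapR (log2 ratio -0.85, -1.08 to -0.64), where it was 3.39-fold in LN-OlapR against its own parent. HOXC9 was 1.505-fold higher (log2 ratio 0.59, 0.32 to 0.86) and HOXA13 1.41-fold higher (log2 ratio 0.49, 0.09 to 0.91). HOXA6 was 0.570-fold (log2 ratio -0.80, -1.51 to -0.14). HOXA11 and HOXB7, which separated C4-2B from LNCaP, differed little, at 0.876-fold (log2 ratio -0.19, -0.43 to 0.05) and 1.04-fold (log2 ratio 0.06, -0.22 to 0.34). The comparisons share libraries: C4-2B is in 2 of the 3, as is LNCaP.

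Both resistant lines were also tested against both parental lines, a test added after the values were seen. In edgeR's quasi-likelihood test with lineage as a block, 0 of the 19 HOX genes whose mean level over the 4 libraries was 1 normalized CPM or more passed an adjusted p of 0.05, and 0 of the 15645 genes tested (0.0%) did. At an unadjusted p under 0.05 there were 2 of the 19, HOXC10 and HOXD13, against 8.16% of all genes tested. HOXC10 was higher in the resistant lines by 2.01 on the log2 scale (edgeR, Benjamini-Hochberg adjusted p = 0.507), in 2 of 2 lineages. HOXD13 was higher by 2.49 (edgeR, adjusted p = 0.571), a value that rests on the C4-2B lineage, since the LNCaP lineage had 1 count in all. With 1 residual degree of freedom, a p that misses the threshold does not show that the lines were alike.

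The genes of the table that lie inside the clusters without being HOX genes reached their highest level in HOXA11-AS, which stood at 0.781, 0.343, 11.7 and 10.6 normalized CPM, a ratio of C4-2B to LNCaP of 3.88 on the log2 scale (3.26 to 4.63). ENSG00000260597, for which the table gives no symbol, lies at the HOXC cluster and had 188, 142, 113 and 164 counts. HOTTIP, a noncoding RNA at the HOXA13 end, had 1, 0, 9 and 12 counts, and EVX1, the homeobox gene outside the cluster past HOXA13, had 0, 0, 19 and 11. These were, as HOXA13 was, highest in C4-2B and 2B-OlapR, through which alone they are in the table. HOXA-AS3 was higher in C4-2B than in LNCaP (log2 ratio 1.98, 1.08 to 3.04), HOXC13-AS was higher in LN-OlapR than in LNCaP (1.41, 0.93 to 1.92), and HOTAIRM1, at the anterior end of HOXA, was lower in 2B-OlapR than in its parent (-1.08, -1.99 to -0.25). HOXC-AS3, beside HOXC10, had 4, 8, 0 and 0 counts. HAGLR, in the HOXD cluster, had 12, 35, 9 and 31 counts, with more in each resistant line than in its parent. It lay below the filter in every comparison, and the share of all genes higher in both pairs was not computed. Of the list of 28 noncoding genes, 12 were in the table, and 4 passed the filter between C4-2B and LNCaP.

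Most genes outside the clusters were within 2-fold. Within 500 kb of the clusters, 36 genes were tested between C4-2B and LNCaP, of which 2 were at least 2-fold higher and 5 lower, against 8.0% and 7.18% of all genes tested, with a median log2 ratio of -0.01. Over a list of flanking genes, 25 were tested, 0 were at least 2-fold higher and 3 lower: SKAP2 beside HOXA (-1.28, -1.45 to -1.11) and PRAC1 (-1.88, -2.05 to -1.71) and PRAC2 (-1.21, -1.49 to -0.95) at the posterior end of HOXB. PRAC2 was also lower in LN-OlapR than in LNCaP (-1.37, -1.65 to -1.11), the only 1 of 25, against 4.83% of all genes tested. SNX10 (-1.25, -1.93 to -0.63) and TTLL6 (-1.40, -2.04 to -0.82) were lower in 2B-OlapR than in its parent, 2 of 25 against 5.65% of all genes tested.

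**Figure D4:**
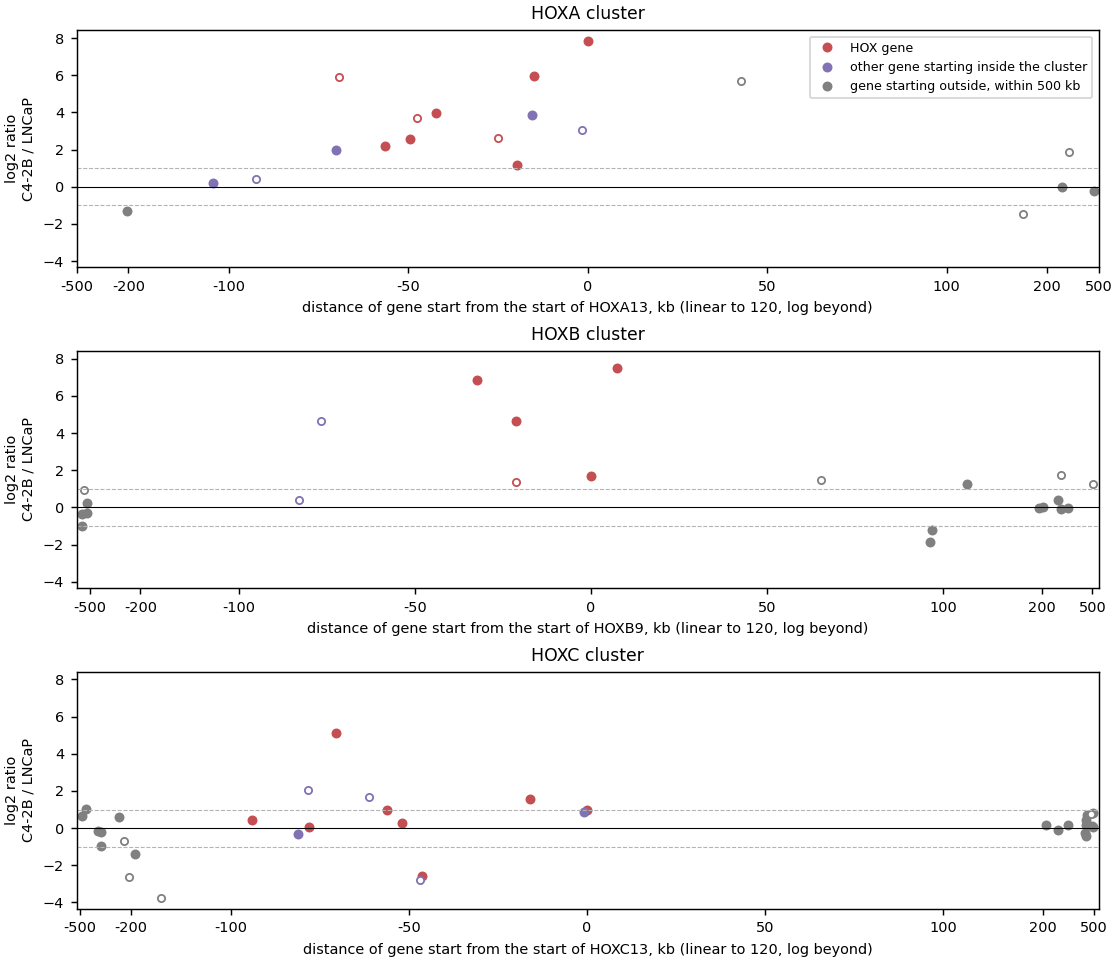
Log2 ratio of C4-2B to LNCaP for genes around the HOXA, HOXB and HOXC clusters, against the distance in kb of each annotated gene start from the start of HOXA13, HOXB9 or HOXC13, positive in the posterior direction. The axis is linear to 120 kb and logarithmic beyond, open points are genes below the filter, and HOXB7 stands past HOXB9 because its annotated start is that of its longest-reaching transcript. HOX genes reach 7.85 in HOXA, and tested genes outside the clusters stay between -1.88 and 1.25.

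Of the 9 TALE cofactors tested, 1 was at least 2-fold lower in LN-OlapR than in LNCaP, against 4.83% of all genes tested. In 2B-OlapR 3 were at least 2-fold lower than in its parent, against 5.65% of all genes tested, and 0 were higher in either pair. MEIS1, a direct partner of HOX proteins, had 3.61, 1.29, 9.19 and 3.09 normalized CPM. It was the only one of the 9 cofactors tested that was at least 2-fold lower in both resistant lines (log2 ratios -1.47, -2.13 to -0.88, and -1.57, -2.0 to -1.16). The share of all genes lower in both was not computed. MEIS1 was higher in C4-2B than in LNCaP (1.34, 0.99 to 1.72). PKNOX2 had 17.2, 22.1, 8.02 and 0.772 normalized CPM, lowest in 2B-OlapR (-3.34, -4.22 to -2.63 against C4-2B) and lower in C4-2B than in LNCaP (-1.10, -1.37 to -0.84). TGIF2, which acts as a repressor, was lower in 2B-OlapR than in its parent (-1.79, -2.03 to -1.56). The median of the 9 was -0.83 in 2B-OlapR against C4-2B, -0.25 in LN-OlapR against LNCaP and -0.08 in C4-2B against LNCaP.

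The Polycomb, Trithorax and MLL genes were mostly within 2-fold. Of 32 Polycomb genes, all tested, 1 was at least 2-fold higher in C4-2B than in LNCaP, RING1 (1.12, 0.98 to 1.27), and 1 was lower in 2B-OlapR than in its parent, PHC1 (-1.57, -2.04 to -1.14), with 0 past 2-fold between LN-OlapR and LNCaP. Their medians were 0.01, -0.04 and -0.03. Of 25 Trithorax and MLL genes, 1 passed 2-fold, MLLT3, lower in LN-OlapR than in LNCaP (-1.39, -1.64 to -1.15). Retinoic acid is known to switch on HOX genes. In its pathway ALDH1A3, an enzyme that makes it, was lower in C4-2B than in LNCaP (-2.32, -2.50 to -2.15) and lower again in 2B-OlapR than in its parent (-1.15, -1.45 to -0.86). DHRS3, which turns retinal back to retinol, was higher in C4-2B than in LNCaP (1.93, 1.51 to 2.37) and lower in 2B-OlapR than in its parent (-1.24, -1.65 to -0.86). The receptor RARG (1.05, 0.90 to 1.20) and the binding protein CRABP2 (1.29, 0.45 to 2.22) were higher in C4-2B than in LNCaP, making 3 higher and 1 lower of 9. The receptor RARB (-1.06, -1.44 to -0.71) and RDH10 (-1.46, -1.71 to -1.21) were lower in LN-OlapR than in LNCaP, 2 of 8. Over all genes tested, 8.0% were at least 2-fold higher and 7.18% lower in C4-2B against LNCaP. The lower shares were 4.83% in LN-OlapR against LNCaP and 5.65% in 2B-OlapR against C4-2B.

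**Figure D5:**
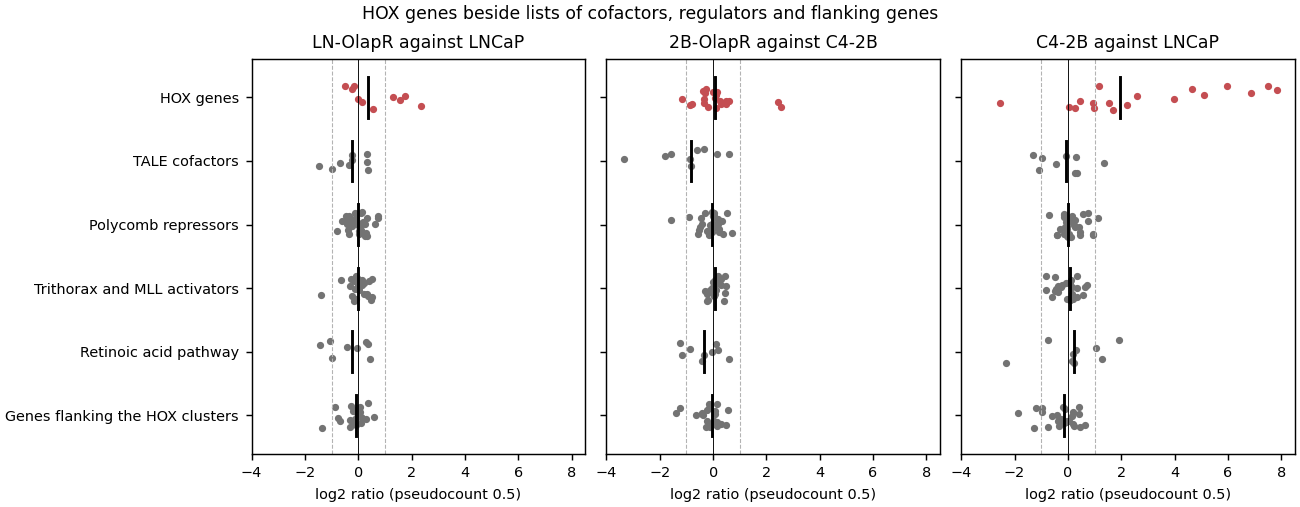
Log2 ratios of the HOX genes and of 5 lists of other genes in the 3 comparisons, for genes that passed the filter. Points are genes, spread vertically at random, short black bars are medians and dashed lines mark 2-fold. The median of the HOX genes is 1.95 in C4-2B against LNCaP, where those of the Polycomb and the Trithorax and MLL genes are 0.01 and 0.06, but 10 of the 18 HOX genes passed the filter only through 1 library, where they are high.

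Of the ParaHox and CDX genes, relatives of the HOX genes outside the clusters, 2 of 6 were in the table. PDX1, a factor of pancreas and duodenum, had 27, 51, 167 and 222 counts. It was higher in LN-OlapR than in LNCaP (1.11, 0.42 to 1.85) and in C4-2B than in LNCaP (3.0, 2.43 to 3.67). CDX2, an intestinal factor that acts on HOX genes, had 1, 0, 15 and 39 counts and was higher in 2B-OlapR than in its parent (1.33, 0.47 to 2.33). Both had their lowest counts in LNCaP and LN-OlapR and their highest in 2B-OlapR, as HOXA13 and HOXD13 did. Of these genes, CDX2, HOXA13 and HOXD13 are in the table only through C4-2B and 2B-OlapR.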

How the data were processed

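Per the labels, 100 ng of total RNA from each line went into a stranded mRNA library. The authors deposited estimated counts per gene, not scaled between libraries, of which 45.9% are not whole, and each gene sums to at least 10.0 over the 4 libraries. STAR, Partek and GRCh38 (hg38) are named in the submitters' processing notes, with no versions, and whether counting used strand is not given in the sources used here.

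The estimated counts were rounded to whole numbers, since the design had assumed counts. TMM factors were computed with edgeR 4.0.16 in R 4.3.3. Further steps used Python 3.11.15, numpy 2.4.6, pandas 2.3.3 and SciPy 1.17.1. For log2 ratios 0.5 counts were added to both libraries. The filter kept genes whose mean level over the pair was 1 normalized CPM or more, these were called at 2-fold, and no p-value was computed between 2 libraries. After seeing the data, both resistant lines were tested against both parental lines with edgeR's quasi-likelihood test and Benjamini-Hochberg adjustment, with lineage as a block. A level at 0 counts was bounded at 3 counts per library. Intervals at the 95% level are Clopper-Pearson for ratios, Wilson for levels and binomial for medians, and cover counting error or the spread over genes only. Totals ranged from 19950537 to 26394267 counts.

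Exon lengths and overlaps are from GENCODE release 29, which matched all 24 genes, and promoters from RefSeq GRCh38.p14. Every HOX gene reported here with at least 1 normalized CPM in a library is named with its levels in the 4 libraries, the others with counts, and list members where past 2-fold. The members and lists were chosen with earlier results of these data known. Some genes are not reported here, though counts, medians and sums over the 24 HOX genes and the lists hold them. The procedure was checked on simulated data. The alternatives were scaling by total counts, DESeq2 1.42.0 size factors or upper quartile factors, 2 counts as the pseudocount, a filter of 0.1, of 10 or none, the longest transcript as length, and 2 chosen after seeing the data, a minimum over all 4 libraries and sums of sense and antisense genes.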

Additional observations from a re-analysis of the deposited data

Results flagged for a closer look

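In 3 HOX genes the log2 ratio of LN-OlapR to LNCaP and that of 2B-OlapR to C4-2B had opposite signs, with counting intervals on opposite sides of 0. The share of all genes that did so was not computed, so it cannot be told whether 3 is many. The difference between the pairs was not tested, as a fit with that difference leaves no residual degree of freedom. HOXA6 had log2 ratios of 1.83 and -0.80, a difference of 2.63, and HOXC12 had 1.76 and -0.85, a difference of 2.61. HOXA6 lay below the filter in the first pair, with 35 counts in LN-OlapR and 11 in LNCaP. HOXC13 had 0.56 and -0.36, a difference of 0.92.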

How the results depend on the processing

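Under scaling by total counts, DESeq2 size factors or upper quartile factors and with a pseudocount of 2 counts, the numbers of HOX genes at least 2-fold higher or lower were those given for each of the 3 comparisons, and the scalings moved all log2 ratios of a comparison alike, by -0.08 to 0.03. Under these and the filters the medians ranged from 0.27 to 0.94 in LN-OlapR against LNCaP, from -0.02 to 0.08 in 2B-OlapR against C4-2B and from 1.06 to 2.40 in C4-2B against LNCaP, within the intervals given for them. The filter on low values changed the numbers. In LN-OlapR against LNCaP the HOX genes at least 2-fold higher were 9 at a minimum mean of 0.1, 1 at a minimum of 10, 11 with no filter and 8 at a minimum mean of 1 over all 4 libraries, an alternative chosen after seeing the data, against 4. At a minimum mean of 10 only 7 HOX genes were left in 2B-OlapR against C4-2B and 4 in C4-2B against LNCaP, so that 0 were higher and 0 lower in the former, and 2 higher and 0 lower in the latter. With HOXA11-AS added, the log2 ratio of HOXA11 between C4-2B and LNCaP was 4.72 in place of 5.97, the 1 of 9 such sums outside the counting interval. With HOXB-AS1 added, HOXB3 was no longer past 2-fold in LN-OlapR or C4-2B against LNCaP, at log2 ratios of 0.78 and 0.90. In the edgeR test of the resistant against the parental lines, 0 HOX genes passed with lineage as a replicate block and 0 with no replicate block, and at an unadjusted p under 0.05 there were 2 and 0. No replicate could be left out, since each line has 1 library and 3 libraries leave the blocked fit no residual degree of freedom. Depth limits the genes below 10 counts, whose ratios have wide intervals.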
